A study of Mus musculus with 24 samples.

Results

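A set of 9 genes that neurons switch on in response to activity, and whose products act at synapses or in signalling and are not transcription factors, was followed across all samples: Homer1, Plk2, Plk3, Nptx2, Inhba, Ptgs2, Rgs2, Gpr3 and Gem. They were taken by symbol from a table of 19661 genes, and each of the 9 was found. The table holds RNA-seq values, as RPKM, read numbers scaled to gene length and library size, from the dorsal hippocampus of both sides in 24 mice, with 6 mice in each of 4 groups. Wild-type mice (C57BL/6J) and Baf53b+/- mice (strain background B6J.129S6-Actl6b<tm1Grc>) were taken either from the home cage or 30 minutes after training in object location memory, a task in which mice explore objects and later recognise an object that has been moved. Baf53b, encoded by Actl6b, is a neuron-specific subunit of the nBAF chromatin remodelling complex, and every heterozygote carries 1 disrupted copy in all cells. The strain background goes with the genotype, so the effects of the 2 cannot be told apart. The only untrained group stayed in the home cage, so learning cannot be told apart from handling, novelty or exploration. The only time sampled after training was 30 minutes, so a rise that comes later could not be seen. Age and sex are not given in the labels.

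Early genes of this kind are transcribed in response to calcium entry and kinase signalling, without need for new protein synthesis. The transcription factors among them change which other genes are read. The effectors act directly on the synapse or the membrane: they rebuild the postsynaptic scaffold, cluster or remove receptors, make secreted signals, or damp signalling through G proteins and calcium channels. In the hippocampus Homer1, Plk2, Nptx2 and Ptgs2 are familiar examples, induced by seizures, by strong synaptic stimulation or by exploration.

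The groups and libraries had the following features that bear on these genes. Actl6b itself was at 51.3 ± 1.26 RPKM (SD, n = 6) in wild type and 30.0 ± 1.44 in heterozygotes in the home cage, and at 50.8 ± 2.65 and 28.3 ± 1.47 after training, with no overlap between genotypes. Depth, recovered from the steps in the values of genes with 1 exon, ran from 28.4 to 47.0 M reads a library. Neuronal markers were high in every library, with a summed level of 3200 to 3827 RPKM. The 11 choroid plexus markers, from a tissue beside the hippocampus, varied far more, from 15.3 to 4757 RPKM summed, and a gap separated 6 libraries that were rich in them (1 wild-type and 2 heterozygote home-cage mice, 1 wild-type and 2 heterozygote trained mice). The 7 dentate gyrus markers, from the granule cell layer, summed to 74.7 to 194 RPKM, and none was at 0 in any library. Genes of the Y chromosome were expressed in 3 of 6 mice of every group except heterozygotes in the home cage, where 5 of 6 expressed them. In whole tissue, fewer cells of a type and less RNA per cell cannot be told apart.

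The promoters of the members were read first, because early genes are often controlled by CREB, which binds the cyclic AMP response element (CRE), and by SRF, which binds the CArG box. RefSeq (GRCm38.p6) promoter entries were matched by symbol for 7 of the 9 members, all but Nptx2 and Gem, with another, downstream start for Homer1, giving 8 windows of 250 bases before the start. The CRE core TGACG, searched on both strands (CGTCA on the other), lay in 5 members, and 17.8% of the 32851 windows of all genes held it. Homer1 held it 3 times before its upstream start, a count reached by 0.688% of all windows, and Plk2, Plk3, Gpr3 and Rgs2 held it 2 times, a count reached or passed by 3.9%. In Plk2 both matches overlap in the palindrome TGACGTCA, found in 1.55% of windows and in no other member. Neither Inhba, Ptgs2 nor the downstream Homer1 window held the core, and no member window held the CArG box, which 1.47% of windows did. Bases outside these windows, including those past the listed start, were not searched, so absence from a window is not absence from the promoter. A selection of windows with the core is shown, those of Gpr3 and Plk3, which rose after training, and those of Plk2 and Homer1, for which no rise was called. Each reads 5′ to 3′ in the direction of the gene and ends at the base before its start, with every core match in capitals.
Gpr3 (chr4:133212537-133212786, minus strand): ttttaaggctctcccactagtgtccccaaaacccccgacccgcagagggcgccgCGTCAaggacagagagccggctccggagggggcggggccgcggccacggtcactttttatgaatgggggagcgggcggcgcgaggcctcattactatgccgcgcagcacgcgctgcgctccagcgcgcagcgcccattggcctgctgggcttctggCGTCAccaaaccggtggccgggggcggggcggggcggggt
Plk3 (chr4:117133964-117134213, minus strand): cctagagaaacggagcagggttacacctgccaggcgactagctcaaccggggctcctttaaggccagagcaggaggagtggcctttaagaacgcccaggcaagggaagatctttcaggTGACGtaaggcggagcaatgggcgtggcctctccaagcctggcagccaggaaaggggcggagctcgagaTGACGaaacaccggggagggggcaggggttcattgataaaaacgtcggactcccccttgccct
Plk2 (chr13:110394794-110395043, plus strand): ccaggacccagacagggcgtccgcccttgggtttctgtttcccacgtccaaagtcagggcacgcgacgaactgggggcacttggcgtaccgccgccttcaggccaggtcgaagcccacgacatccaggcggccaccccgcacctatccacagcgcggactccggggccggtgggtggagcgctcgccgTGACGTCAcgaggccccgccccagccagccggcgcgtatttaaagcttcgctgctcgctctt
Homer1 (chr13:93303507-93303756, plus strand): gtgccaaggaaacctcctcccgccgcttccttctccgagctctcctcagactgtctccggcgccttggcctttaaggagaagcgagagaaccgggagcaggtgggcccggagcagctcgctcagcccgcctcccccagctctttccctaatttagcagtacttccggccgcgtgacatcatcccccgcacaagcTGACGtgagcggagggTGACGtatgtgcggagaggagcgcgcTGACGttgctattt
The core thus stood in promoters of members that rose and of members that were not called. These matches are letters in a window and were not tested as binding sites.

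The members spanned a wide range of expression per length. Plk2, an activity-induced polo-like kinase, was the highest at a mean of 80.2 RPKM over the 24 mice, above 96.8% of all genes. Homer1, the postsynaptic scaffold protein, stood at 17.99 RPKM. Nptx2, the secreted pentraxin Narp, had a mean level of 12.8 RPKM and Rgs2, a regulator of G protein signalling, 9.68 RPKM. Ptgs2, the prostaglandin-making cyclooxygenase COX-2, was at 8.02 RPKM. The single-mouse ranges of Homer1 (15.9 to 21.8 RPKM) and Nptx2 (9.18 to 17.9), of Nptx2 and Rgs2 (8.51 to 10.8), and of Rgs2 and Ptgs2 (6.07 to 10.2) overlapped. Within each mouse, however, Homer1 was above Nptx2. The order of Nptx2 and Rgs2, and that of Rgs2 and Ptgs2, changed between mice. Plk3, the other inducible polo-like kinase, was at 3.67 RPKM. The lowest levels were those of Inhba, the activin βA subunit, at 2.30 RPKM, Gpr3, an orphan receptor, at 1.98 RPKM, and Gem, a small GTPase, at 0.925 RPKM. Among the low members the ranges of Plk3 (2.74 to 4.40 RPKM) and Inhba (1.39 to 3.08), of Inhba and Gpr3 (1.23 to 2.61), and of Gpr3 and Gem (0.535 to 1.45) overlapped as well. Within each mouse Plk3 was above Inhba and Gpr3 above Gem, whereas the order of Inhba and Gpr3 changed between mice. Plk2 stood above every value of Homer1, and Ptgs2 above every value of Plk3.

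Gem was the only member below the expression minimum of 1 RPKM, averaged over all mice, that a gene had to reach to be tested. Gpr3 lay closest above that minimum. A transcript of 2 kb at Gem's level would carry between 33.6 and 89.7 reads a library.

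**Figure D1:**
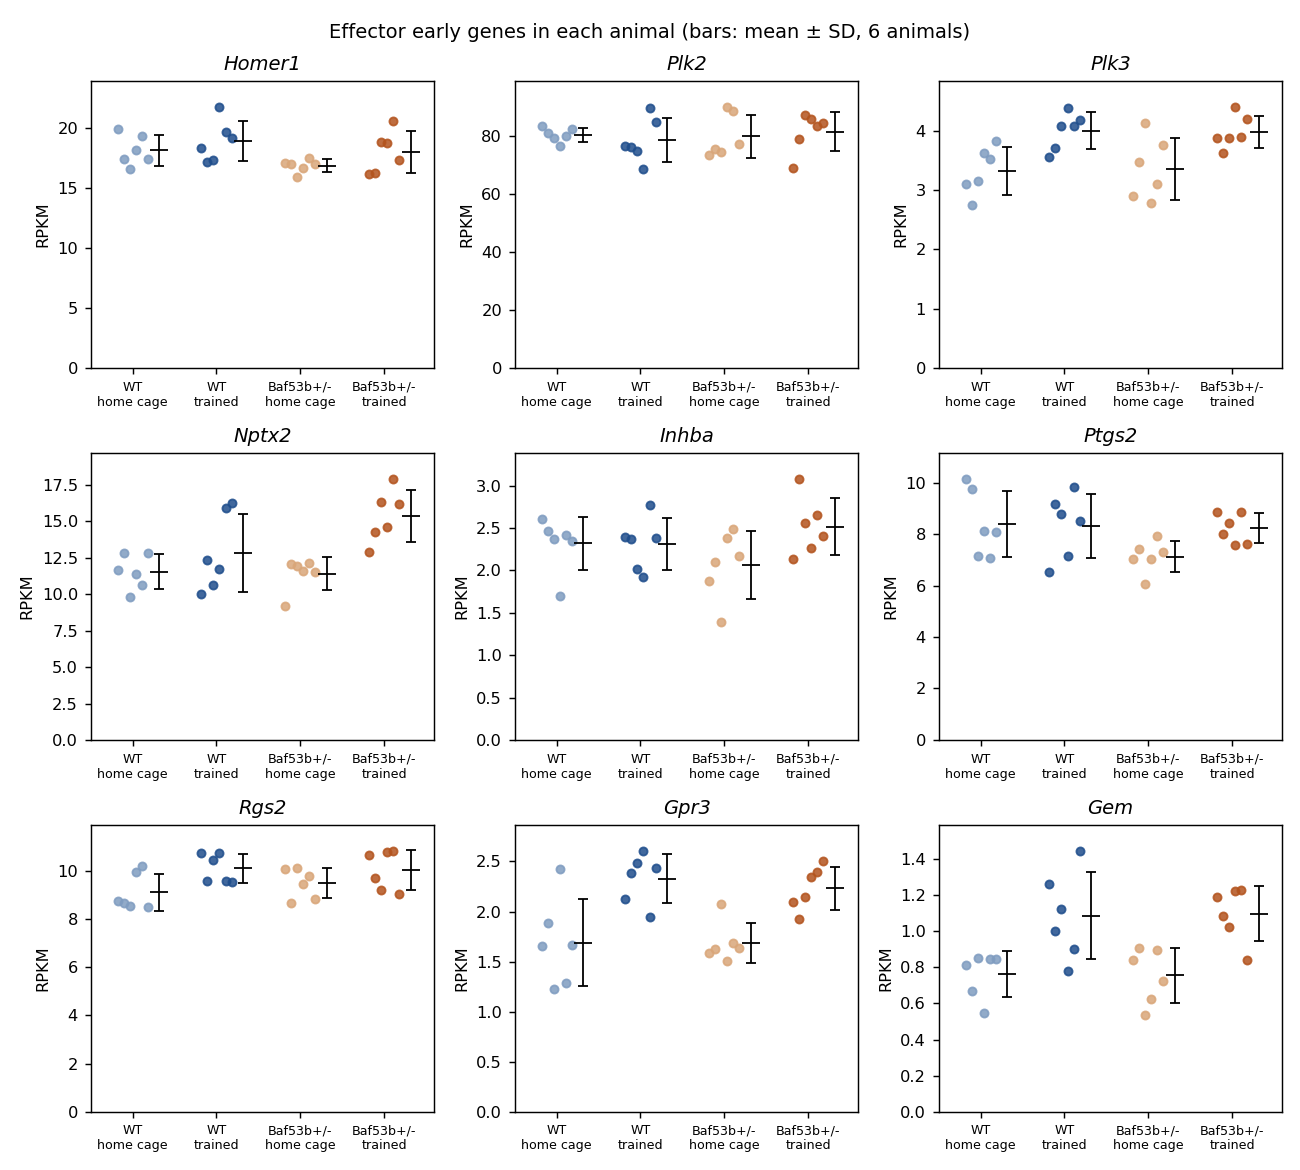
RPKM of each of the 9 genes (1 panel a gene, linear axis) in every mouse, in the order wild type home cage, wild type trained, heterozygote home cage and heterozygote trained, with 6 points a group and a bar at the group mean with its SD. Trained mice stand above home-cage mice in Gpr3, Plk3 and Gem in both genotypes, with some overlap in each, and Nptx2 separates without overlap in heterozygotes.

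Training was compared with the home cage within each genotype and over both, on the log2(RPKM + 0.5) scale, with limma's moderated test and Benjamini-Hochberg adjustment over 12399 genes. Over both genotypes 3 of the 8 tested members rose (Gpr3, Plk3 and Nptx2) and none fell, where 3.26% of all tested genes rose and 0.911% fell. In wild type 1 of 8 rose (Gpr3), against 0.96% of all genes. In heterozygotes no member passed, against 0.887% of all genes. At an unadjusted p under 0.05 in the same limma fit, 3 of the 8 members passed in wild type, 5 in heterozygotes and 4 over both, beside 11.1%, 11% and 16.8% of all tested genes in either direction. An exact permutation test on RPKM, run on each gene alone and not adjusted for the number of genes, gave p under 0.05 for a higher level in 4 of 9 members in wild type (Plk3, Gpr3, Gem and Rgs2) and in 5 of 9 in heterozygotes (Nptx2, Gpr3, Gem, Ptgs2 and Plk3). The same test reached that in 6.72% and 6.64% of the 12399 genes tested by limma, which do not include Gem. The wild-type and heterozygote differences share no animals, whereas the comparison over both uses all of them. In limma, however, the p of each genotype also rests on an estimate of the spread drawn from all groups.

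The receptor Gpr3 (chr4:132765255-132768451 in mm9, the build of all positions of members given with their values), which couples to Gs and raises cyclic AMP without a known need for a ligand, had the lowest p of the tested members over both genotypes. In wild type its RPKM ran from 1.23 through a median of 1.66 to 2.42 in the home cage, and from 1.95 through 2.41 to 2.61 after training. In heterozygotes it ran from 1.51 through 1.63 to 2.07, and from 1.93 through 2.25 to 2.50. In both genotypes all 6 trained mice lay above the home-cage median, and the groups overlapped through a single home-cage mouse in each genotype. The mean level was 1.38 times that of the home cage in wild type and 1.33 times in heterozygotes. By limma the log2 difference was 0.39 ± 0.10 (SE, adjusted p = 0.0498) in wild type, 0.32 ± 0.10 (adjusted p = 0.145) in heterozygotes and 0.36 ± 0.07 (adjusted p = 0.00225) over both. The exact permutation p was 0.0152, 0.00433 and 0.000122 in the same order. The wild-type call was at the edge of the threshold and was lost when any of 21 of the 24 libraries was left out in turn (limma adjusted p up to 0.114), with the difference between 0.32 and 0.48. The 24 include heterozygote libraries, which leave the wild-type difference itself unchanged. Leaving those out acts only through the shared spread and the adjustment over genes. Over both genotypes Gpr3 kept its call in all 24 such fits.

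Plk3 (chr4:116801336-116806557), a kinase that like its relative Plk2 responds to synaptic activity, rose over both genotypes and was not called in either alone. It ran from 2.74 through 3.33 to 3.83 RPKM in wild-type home-cage mice and from 3.55 through 4.09 to 4.38 after training. In heterozygotes the corresponding values were 2.79, 3.28 and 4.14, and 3.63, 3.89 and 4.40. The groups overlapped, with 4 wild-type and 2 heterozygote trained mice above every home-cage mouse of their genotype and all 12 above its median. The log2 difference over both genotypes was 0.23 ± 0.06 (limma adjusted p = 0.0152), and it was called in all 24 fits with 1 library left out. Within a genotype it was 0.24 ± 0.08 in wild type (limma adjusted p = 0.183) and 0.22 ± 0.08 in heterozygotes (limma adjusted p = 0.254), neither called. The exact permutation p was 0.013 and 0.0346.

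Plk2 (chr13:111185252-111191051), in contrast, moved little. This kinase, which in neurons phosphorylates the spine protein SPAR and leads to its loss, had group means between 78.6 and 81.6 RPKM, and single mice between 68.7 and 90.0. The log2 difference over both genotypes was -0.01 ± 0.04, with a 95% interval from -0.10 to 0.09 (limma adjusted p = 0.970). Trained and home-cage mice overlapped in both genotypes.

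Gem (chr4:11631594-11642140), which binds calcium channel β subunits and lowers calcium current, had the highest fold of the 9 members in RPKM. It ran from 0.544 through 0.827 to 0.851 RPKM in wild-type home-cage mice and from 0.782 through 1.06 to 1.45 after training. In heterozygotes it ran from 0.535 through 0.783 to 0.909, and from 0.839 through 1.14 to 1.23. In each genotype 5 of 6 trained mice lay above every home-cage mouse. Mean levels were 1.43 times higher in wild type and 1.45 times higher in heterozygotes, with exact permutation p of 0.0173 and 0.00866. With the minimum lowered to 0.1 RPKM, so that 15503 genes including Gem were tested, its log2 difference was 0.34 ± 0.07 over both genotypes (limma adjusted p = 0.00566, where 2.58% of genes rose). Within a genotype it was not called in that fit, where 0.697% of genes rose in each, at 0.32 ± 0.10 in wild type (limma adjusted p = 0.155) and 0.35 ± 0.10 in heterozygotes (limma adjusted p = 0.130). The pseudocount of 0.5 is of the order of Gem's own level, so the log2 difference understates its fold. To a smaller degree the same holds for Gpr3, at a mean of 1.98 RPKM.

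Nptx2 (chr5:145306756-145318347), which is secreted at synapses and clusters AMPA receptors, separated without overlap in heterozygotes. In wild type it ran from 9.84 through 11.5 to 12.9 RPKM in the home cage and from 9.98 through 12.02 to 16.3 after training. In heterozygotes it ran from 9.18 through 11.8 to 12.1, and from 12.9 through 15.4 to 17.9. All 6 trained heterozygotes lay above all 6 in the home cage, as in 1% of tested genes, while 2 of 6 trained wild-type mice lay above all of theirs. No member separated without overlap in wild type, where 1.08% of tested genes did. The heterozygote difference was 0.41 ± 0.11 on the log2 scale (limma adjusted p = 0.0609, not called, although it passed at 0.0328 when only the heterozygote groups were fitted). Its exact permutation p of 0.00216 is the smallest that 6 against 6 can give. In wild type the difference was 0.13 ± 0.11 (limma adjusted p = 0.711) and over both genotypes 0.27 ± 0.07 (limma adjusted p = 0.0391). The latter was lost when any of 14 of the 24 libraries was left out (adjusted p up to 0.0696), with the difference between 0.23 and 0.30. The difference between the genotypes is tested further on.

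Rgs2 (chr1:145846468-145851279), which speeds the shut-off of Gq signalling, showed a small difference that was not called by limma. Its median was 8.70 RPKM (8.51 to 10.2) in wild-type home-cage mice and 10.0 (9.54 to 10.8) after training, and 9.61 (8.65 to 10.1) and 10.2 (9.03 to 10.8) in heterozygotes. The groups overlapped in both genotypes. The log2 difference was 0.14 ± 0.06 in wild type (limma adjusted p = 0.299, exact permutation p = 0.0346) and 0.08 ± 0.06 in heterozygotes (limma adjusted p = 0.678). Over both genotypes it was 0.11 ± 0.04 (limma adjusted p = 0.134).

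Homer1 (chr13:94074450-94174917) links group I metabotropic glutamate receptors to Shank and to IP3 receptors, and activity induces a short form, Homer1a, that competes with the long ones. The deposited value is given per gene, and which exons were counted is not stated in the sources used here. A change in the short form alone could therefore be diluted or missed, and the forms cannot be told apart. Homer1 ran from 16.6 through 17.8 to 19.9 RPKM in wild-type home-cage mice and from 17.2 through 18.8 to 21.8 after training. In heterozygotes it ran from 15.9 through 17.003 to 17.5, and from 16.2 through 18.1 to 20.6. The groups overlapped, and the log2 difference over both genotypes was 0.07 ± 0.04 (95% interval -0.01 to 0.16, limma adjusted p = 0.409).

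The last pair make secreted or diffusible signals. Inhba (chr13:16106308-16119044), whose product dimerises into activin A, had medians of 2.39 RPKM (1.70 to 2.61) and 2.38 (1.92 to 2.77) in wild-type home-cage and trained mice, and 2.13 (1.39 to 2.49) and 2.48 (2.13 to 3.08) in heterozygotes. Ptgs2 (chr1:151947254-151955142) had medians of 8.11 RPKM (7.08 to 10.1) and 8.63 (6.51 to 9.84) in wild type, and 7.17 (6.07 to 7.93) and 8.21 (7.56 to 8.87) in heterozygotes. Both overlapped between conditions in each genotype. In wild type the 95% interval of the log2 difference ran from -0.21 to 0.21 for Inhba and from -0.20 to 0.18 for Ptgs2. In heterozygotes the differences were 0.24 ± 0.10 for Inhba (limma adjusted p = 0.374, exact permutation p = 0.0541) and 0.20 ± 0.09 for Ptgs2 (limma adjusted p = 0.433, exact permutation p = 0.0108), neither called by limma. Without 1 heterozygote home-cage mouse, animal 2415, the Inhba difference was 0.16 (limma adjusted p = 0.731).

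**Figure D2:**
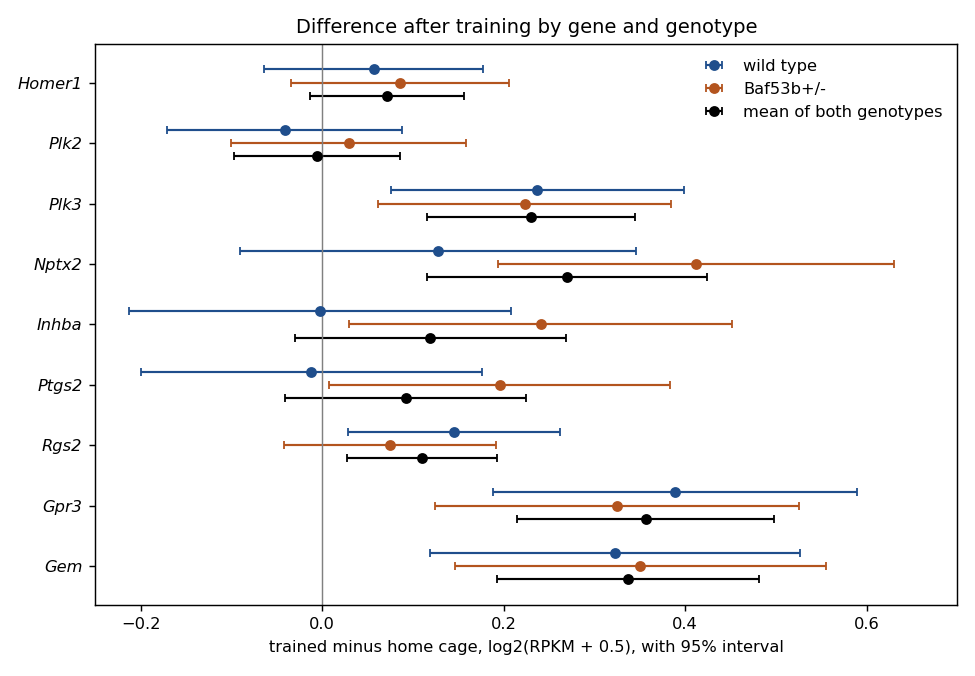
Difference after training, trained minus home cage, on the log2(RPKM + 0.5) scale (horizontal axis) for each gene in wild type, in heterozygotes and as the mean of both genotypes, with 95% intervals from limma (Gem from the fit with the lower minimum). Intervals of Gpr3, Plk3 and Gem lie above 0 in both genotypes, those of Nptx2, Inhba and Ptgs2 do so in heterozygotes and that of Rgs2 in wild type, and those of Plk2 and Homer1 cross 0 in both.

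When the 6 libraries with much choroid plexus RNA were dropped, 18 mice were left, and no member was called over both genotypes, although the differences stayed close to their values with all mice: 0.32 for Gpr3 (limma adjusted p = 0.0608), 0.25 for Plk3 (adjusted p = 0.0818), 0.30 for Nptx2 (adjusted p = 0.0947) and, with the lower minimum, 0.33 for Gem (adjusted p = 0.0690). With the score of those markers fitted as a covariate the 3 calls stood, at 0.36 for Gpr3, 0.23 for Plk3 and 0.27 for Nptx2.

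Genotype was then compared within each condition, and the difference in training response was tested as an interaction. No member was called by limma in the home cage, after training or in the interaction, where 0.00807%, 0.00807% and 0% of all genes were called. At an unadjusted p under 0.05 limma gave 1 of the 8 members in the home cage (Ptgs2), 1 after training (Nptx2) and 0 in the interaction, beside 3.52%, 3.69% and 2.49% of all tested genes. In the home cage Ptgs2 was at 0.849 times the wild-type mean in heterozygotes, a log2 difference of -0.21 ± 0.09 (limma unadjusted p = 0.0278, adjusted p = 0.999). Homer1 was at 0.929 times, or -0.10 ± 0.06 (limma adjusted p = 0.999). It was the only member with an exact permutation p under 0.05 in the home cage, at 0.0476. By that test 3.11% of tested genes differed in either direction, and 1.4% were lower in heterozygotes. The groups overlapped for both genes. After training Nptx2 was at 1.199 times the wild-type mean in heterozygotes, 0.27 ± 0.11 on the log2 scale (limma unadjusted p = 0.0178, adjusted p = 0.993, exact permutation p = 0.0844). No member had an exact permutation p under 0.05 after training, where 4.78% of tested genes did. Nptx2 lies on chromosome 5, where it starts 7.3 Mb from the end of Actl6b (mm9). Whether strain sequence around the disrupted allele reaches it was not tested.

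The interaction estimates show how far the data can place a difference in response between genotypes. The heterozygote response minus the wild-type response was 0.29 ± 0.15 for Nptx2 (95% interval -0.02 to 0.59), 0.24 for Inhba (-0.06 to 0.54) and 0.21 for Ptgs2 (-0.06 to 0.47) on the log2 scale. For Gpr3 it was -0.06 (-0.35 to 0.22), for Plk3 -0.01 (-0.24 to 0.21) and for Rgs2 -0.07 (-0.23 to 0.10). For Homer1 it was 0.03 (-0.14 to 0.20), for Plk2 0.07 (-0.11 to 0.25) and, with the lower minimum, for Gem 0.03 (-0.26 to 0.32). All 9 intervals include 0, with limma adjusted p between 0.985 and 0.998. The interval for Nptx2 reaches 0.59, above its own training difference over both genotypes, and those for Gpr3 and Gem reach -0.35 and 0.32, close in size to theirs, so like responses in the 2 genotypes are not shown by these data.

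The dentate gyrus markers moved with some of these values. In the interaction all 7 of these markers had a positive estimate and none was called, with a median of 0.35 on the log2 scale. Over all tested genes the median was -0.01 and 44.2% of estimates were positive. Other tissue markers were uneven there too, with none called. Of the 11 choroid plexus markers 0 were positive (median -0.67), and all 5 oligodendrocyte markers were positive (median 0.14). The summed level of the dentate markers ran from 116 to 186 RPKM in wild-type home-cage mice, 103 to 183 in trained wild type, 74.7 to 178 in home-cage heterozygotes and 136 to 194 in trained heterozygotes. Across the 12 home-cage mice, with each genotype centred on its mean, Inhba followed the dentate score (the mean log2 of the 7 markers) with Pearson's r of 0.933 and Spearman's rho of 0.867 (permutation p = 0.00047 and 0.00091, adjusted over 18 relations p = 0.00846 and 0.0164). Without the 2 mice farthest from the median of the x axis r was 0.699 (adjusted permutation p = 0.32), so the relation at that size rests on those mice. Plk3 went the other way in the home cage, with r of -0.712 and rho of -0.741 (adjusted permutation p = 0.0403 and 0.0958), and -0.733 without the 2 farthest mice (adjusted permutation p = 0.32). For Gpr3 in the home cage r was -0.641 (adjusted permutation p = 0.0882) and 0.089 without the 2 farthest mice. After training r was 0.75 for Inhba and -0.714 for Rgs2 (adjusted permutation p = 0.0525 for both), neither past the threshold. No relation of a member to the choroid plexus score passed in either condition.

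**Figure D3:**
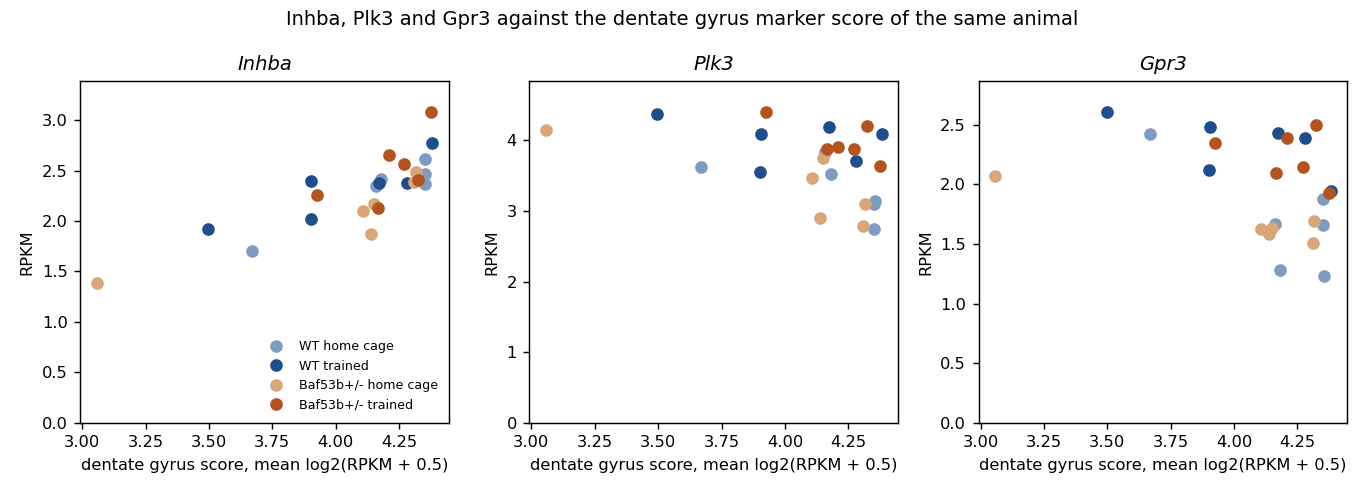
RPKM of Inhba, Plk3 and Gpr3 (vertical axes, linear) against the dentate gyrus marker score, the mean log2(RPKM + 0.5) of 7 markers (horizontal axes), 1 point a mouse, coloured by group. Inhba is higher and Plk3 lower in home-cage mice with a higher score, the slope of Gpr3 in the home cage rests on the 2 mice with the lowest scores, and the heterozygote home-cage mouse with the lowest score, 3.06, lies far to the left.

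With the dentate score as a covariate the 3 calls over both genotypes stood, at 0.36 for Gpr3 (limma adjusted p = 0.00022), 0.24 for Plk3 (adjusted p = 0.0017) and 0.27 for Nptx2 (adjusted p = 0.0384). In heterozygotes Gpr3 at 0.39 (limma adjusted p = 0.0146) and Plk3 at 0.28 (adjusted p = 0.0329) then passed. The heterozygote difference of Inhba was 0.14 in that fit (limma adjusted p = 0.353). The interaction estimates in that fit were 0.07 for Inhba, 0.11 for Ptgs2 and 0.24 for Nptx2, beside 0.24, 0.21 and 0.29 without the covariate.

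Whether the members varied together from mouse to mouse was examined in pairs within each condition, with 12 mice in each. Among the 36 pairs in each condition none had a permutation p under 0.05 after adjustment for Pearson's r or Spearman's rho. The highest r after training was that of Plk2 and Nptx2, 0.751 with a rho of 0.79 (adjusted permutation p = 0.351 and 0.264), and in the home cage that of Plk2 and Inhba, 0.72 with a rho of 0.825 (adjusted permutation p = 0.26 and 0.0839). With 12 mice these p do not show that the members varied independently.

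For each member the genes with the most similar level over the 24 mice were found by Pearson's r on the log2 scale, which takes in both the group differences and the marker content of each library. Gpr3 was most like Vgf (0.834), a secreted neuropeptide precursor, Spry4 (0.823) and Dusp5 (0.808), both inhibitors of the ERK pathway. Plk3 was most like Gpr17 (0.838), Midn (0.775) and the early transcription factor Klf4 (0.768). Gem was most like Specc1l (0.806), Unc119b (0.804) and Nfil3 (0.796). Nptx2 was most like Cx3cl1 (0.818), Upf1 (0.796) and Plekhn1 (0.777). Inhba was most like Bhlhe22 (0.888), Fam84a (0.883) and Lct (0.882), the last of which is one of the 7 dentate markers. Homer1 was most like Hspa5 (0.838), Uhrf2 (0.779) and Calr (0.76), of which Hspa5 and Calr encode chaperones of the endoplasmic reticulum. Plk2 was most like Camkk2 (0.865), Zmat5 (0.857) and Itga7 (0.848). Ptgs2 was most like Rgs8 (0.795), Klhl2 (0.789) and Kcnh1 (0.787), and Rgs2 like Akap17b (0.862), Dlx2 (0.832) and Cdc42ep3 (0.818).

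Genes that work with each member were counted over both genotypes by the same limma test, with 61 tested in all and a median log2 difference of 0.00. Of these 2 rose (3.28%) and 1 fell (1.64%), beside 3.26% and 0.911% of all tested genes, so the share that rose was that of the background. Of the 8 partners of Homer1 none was called, and the 2 with the lowest p were Itpr1, an IP3 receptor, at 0.06 ± 0.03 (limma adjusted p = 0.305) and Homer3 at -0.12 ± 0.07 (adjusted p = 0.429). Of the 3 tested among other polo-like kinases and spine substrates none was called, including Sipa1l1, which encodes SPAR, at 0.06 ± 0.03 (limma adjusted p = 0.274) and Rasgrf1 at -0.02 ± 0.03 (adjusted p = 0.855). None of 6 pentraxins and AMPA receptor subunits was called. Among them the pentraxin receptor Nptxr was at -0.15 ± 0.07 (limma adjusted p = 0.263) and the subunit Gria4 at 0.04 ± 0.08 (adjusted p = 0.881).

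In the activin pathway 1 of 11 tested genes rose, the inhibitory Smad7, at 0.18 ± 0.04 (limma adjusted p = 0.0222), from 5.53 to 6.21 RPKM in wild type and from 5.51 to 6.39 in heterozygotes. In the prostaglandin pathway 1 of 7 rose, the E2 receptor Ptger1, at 0.22 ± 0.06 (limma adjusted p = 0.0371), a call lost when any of 13 of the 24 libraries was left out. None of the 15 tested relatives of Rgs2 was called, with Rgs4 at 0.19 ± 0.07 (limma adjusted p = 0.182) and Rgs6 at 0.14 ± 0.06 (adjusted p = 0.206). Among 6 genes around Gpr3 its close relative Gpr12 fell by 0.16 on the log2 scale (SE 0.04, limma adjusted p = 0.0249), from 11.2 to 9.78 RPKM in wild type and from 10.8 to 9.76 in heterozygotes. None of 5 RGK GTPases and calcium channel β subunits, the family and partners of Gem, was called, with Rem2 at -0.08 ± 0.06 (limma adjusted p = 0.588). Gpr12 and Smad7 kept their calls in all 24 fits with 1 library left out, and without the 6 libraries rich in choroid plexus markers they were at -0.17 (limma adjusted p = 0.145) and 0.16 (adjusted p = 0.178).

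The members were set beside other early genes. Their median log2 difference over both genotypes was 0.11, beside 0.22 for 13 other effector early genes, 0.99 for 15 tested transcription factor early genes and 0.00 for all tested genes, and the ranges of the 3 lists overlapped. Of the other effectors 8 of 13 rose, led by Arc, a regulator of AMPA receptor endocytosis, at 1.94 ± 0.10 (limma adjusted p = 8.3e-12), which went from 32.9 to 124 RPKM in wild type and from 31.5 to 126 in heterozygotes. The others that rose were Dusp1 (1.002), Trib1 (0.70), Cyr61 (0.66), Sgk1 (0.42), Errfi1 (0.25), the neurotrophin Bdnf (0.18) and Plat (0.16), on the log2 scale. Of the transcription factors 14 of 15 rose, from Srf at 0.16 to Fos at 2.56, and Jun at 0.12 was not called (limma adjusted p = 0.319). In wild type the counts were 1 of 8 members, 4 of 13 other effectors and 11 of 15 transcription factors, and in heterozygotes 0 of 8, 5 of 13 and 12 of 15. These are descriptions of lists chosen with results known, and no test between the lists was made.

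**Figure D4:**
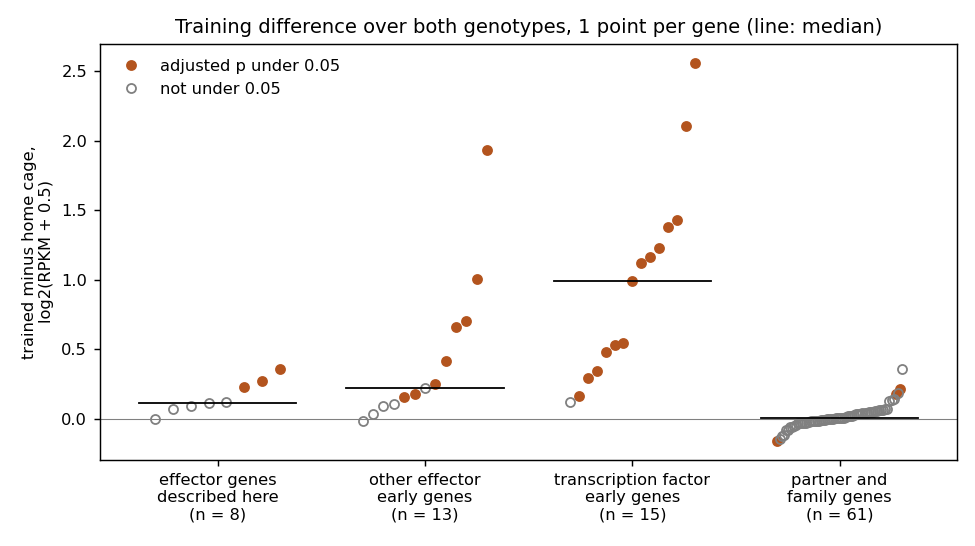
Log2 difference after training over both genotypes (vertical axis) for every tested gene of 4 lists, 1 point a gene, filled where limma's adjusted p was under 0.05, with a line at each list's median. The members lie between -0.01 and 0.36 with a median of 0.11, the other effectors have a median of 0.22, the transcription factors 0.99 and the 61 partner and family genes 0.00.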

How the data were processed

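Dorsal hippocampus RNA from 24 mice (4 groups of 6) was sequenced with TruSeq RNA v2 libraries, which do not keep strand, in single-end runs of 50 cycles from 4 multiplex pools, per the labels' protocols. The sources used here do not tie mice to pools, and pool was therefore not a term in any fit. The authors deposited 1 table of RPKM values per gene and mouse with mm9 positions. CASAVA 1.8.2 and Bowtie 0.12.8 are named, per the submitters' processing notes. The annotation, the treatment of multiply mapped reads and the RPKM denominator were not given in the sources used here.

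The RPKM were analysed on the log2(RPKM + 0.5) scale in 12399 genes whose average over all mice reached 1 RPKM. limma 3.58.1 in R 4.3.3, with trend and robust settings and the 4 groups in 1 model, gave differences, 95% intervals and Benjamini-Hochberg adjusted p over all tested genes, and a call is an adjusted p under 0.05. Exact permutation tests (two-sided) of the mean RPKM of single members used all 924 splits of 6 against 6, or 853776 splits within both genotypes. Correlations across mice used 100000 permutations after centring each genotype (Python 3.11.15, scipy 1.17.1). Each library has a number of its own in the labels, taken here as a separate mouse. The limma step was tested on simulated data. Depth came from the read steps in 1003 genes with 1 exon, in which 43.7% to 51.7% of values came within 0.05 reads of an integer, beside a median of 6.73% to 8.78% over other totals, and no count test was run. Promoters were searched in RefSeq windows of GRCm38.p6, not the build of the RPKM table.

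All 9 members are named whatever their p, and genes of the partner and family lists where they passed or, where none passed, up to 2 by lowest p over both genotypes. Of the other early genes, all effectors that passed are named, while Fos, Srf and Jun (the highest and lowest called and the uncalled transcription factor) were chosen after their values were seen. The members and all lists were chosen with earlier results of these data known. Alternatives were other pseudocounts (0.1 and 1), a minimum of 0.1 RPKM and none, median-of-ratios scaling, limma without trend, only the groups compared, marker scores or sex as covariates, no choroid-rich libraries, and each library left out. The relations of members to marker scores were added after seeing the data.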

Additional observations from a re-analysis of the deposited data

Results flagged for a closer look

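Each member was checked in each group of 6 mice for a mouse that stood apart from the others by Dixon's criterion, which sets the gap to the nearest mouse against the group's range. Chance meets it in about 1 in 20 groups. It was met in 3 of 36 groups. Nptx2 was at 9.18 RPKM in home-cage heterozygote 2400, below the next lowest mouse at 11.5. Inhba was at 1.70 RPKM in wild-type home-cage mouse 2418, below the next at 2.35. Gpr3 was at 2.07 RPKM in home-cage heterozygote 2415, above the next at 1.69. The mice 2418 and 2415 also had the lowest dentate gyrus scores of their groups, 3.67 and 3.06. The part of tissue content in these values was not tested. Without each of these mice in turn, Gpr3 and Plk3 kept their calls over both genotypes. The Nptx2 call over both genotypes by limma was lost without 2400 and without 2418 and stood without 2415.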

How the results depend on the processing

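No member's called difference changed sign under any alternative, and no member was called for genotype or for the interaction under any. In wild type the 1 called member (Gpr3) became 0 with a pseudocount of 0.1 or 1, with a minimum of 0.1 RPKM or none, with median-of-ratios scaling, with only the groups compared and without the libraries rich in choroid plexus markers, and 0 to 1 with each library left out. In heterozygotes the count of 0 became 1 with only the groups compared (Nptx2), 2 with the dentate score as a covariate (Plk3 and Gpr3), and 0 to 1 with each library left out. Over both genotypes the count of 3 became 0 without the choroid-rich libraries and was 2 to 3 with each library left out. Nptx2 was lost there without a filter (limma adjusted p = 0.0595), with median-of-ratios scaling (adjusted p = 0.0516) and with sex as a covariate (adjusted p = 0.0585). Over all genes, 134 calls in wild type became 75 with only the groups compared and 65 without the choroid-rich libraries, 128 in heterozygotes became 85 and 51, and 517 over both became 262. Both alternatives use fewer samples. In the genotype comparison after training, 1 gene became 2 under some settings. Exact permutation gave the same counts of members on the log2 scale. No paired analysis was possible because the animal numbers differ between the groups. Depth in reads was worked out for Gem's level and for 1 RPKM, and its part in the spread of single members was not tested.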
